A study of Mus musculus with 6 samples.

Results

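The genes described here are 42 mouse genes of the type I interferon antiviral response: effectors that act on viral RNA, DNA or particles, and the cytosolic sensors of nucleic acid that stand before them. They were taken as a list of symbols by function. Each gene was read from 1 probe set, annotated to that gene alone and with the highest mean over the 6 arrays. That gave values for 39 of the 42, among 18192 genes read by the same rule. Isg15 and Trex1 had only a probe set shared with another gene and Ifi44 had no probe set in the annotation table, so these 3 were not analysed here.

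The series asked how EVI1, a zinc finger transcription factor of blood stem cells and some myeloid leukaemias, changes transcript levels in progenitors. Lineage-negative (Lin-) haematopoietic progenitors, which lack the surface markers of mature blood cells, came from C57BL/6J mice carrying Rosa26rtTA, the doxycycline-dependent activator that drives the vector's tetracycline-responsive promoter. All were kept in the S3F11 cytokine mixture of murine stem cell factor (50 ng/ml), murine interleukin-3 (20 ng/ml), human Flt3 ligand (50 ng/ml) and human interleukin-11 (50 ng/ml). The 3 EGFP-positive samples were transduced with the lentiviral vector pRRL.TET.EVI1.IRES.EGFP, which makes EVI1 and the fluorescent protein EGFP from 1 transcript, and were sorted for high EGFP. Per the design text, doxycycline at 1 µg/ml was given 20 hours before the sort of either fraction. The 3 EGFP-negative samples are called untransduced in their source label, whereas the design text has cells of negative or low EGFP sorted out of the transduced culture. Groups follow the sample titles, since the free-text descriptions use the word untransduced for both groups. Among the samples used here no group had taken up a vector without EVI1, so entry of the vector, EGFP and EVI1 cannot be told apart. The labels name no separate cultures or mice behind the replicate numbers, so a p-value here reflects no more than the scatter among these 6 samples, which may be technical.

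Type I interferons bind the receptor IFNAR1/IFNAR2, and the kinases JAK1 and TYK2 then switch on a complex with STAT2 and IRF9 that binds interferon-stimulated response elements in DNA. The genes it switches on include sensors: RIG-I-like helicases see viral RNA and can in turn induce interferon, and ZBP1 and AIM2 see other nucleic acids. Many blood progenitors also express a subset of these genes without infection.

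Altogether 32 of the 39 measured genes rose in EGFP-positive cells and none fell, at an adjusted p under 0.05 in limma (Benjamini-Hochberg over 18192 genes). At an unadjusted p under 0.05, 1 gene, Nlrp3, was lower. Of all genes tested, 16.0% were called higher and 17.2% lower. The 32 of 39 are 82.1%. A rise of at least 2-fold was called for 19 of the 39, against 5.95% of all genes. The median difference of the 39 was 0.95 on the log2 scale (range -1.38 to 3.97), while the median over all genes was 0.02. In 33 of the 39, all 3 EGFP-positive arrays lay above all 3 EGFP-negative arrays, a pattern of 23.8% of all genes. The other six were Mx2, Isg20, Eif2ak2, Mavs and Pycard, whose groups overlapped, and Nlrp3, whose EGFP-positive arrays all lay below. Among all rises ranked by size, 3 of these genes stood in the first 100: Rsad2 at rank 35, Rtp4 at rank 81 and Ifit1 at rank 93.

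**Figure D1:**
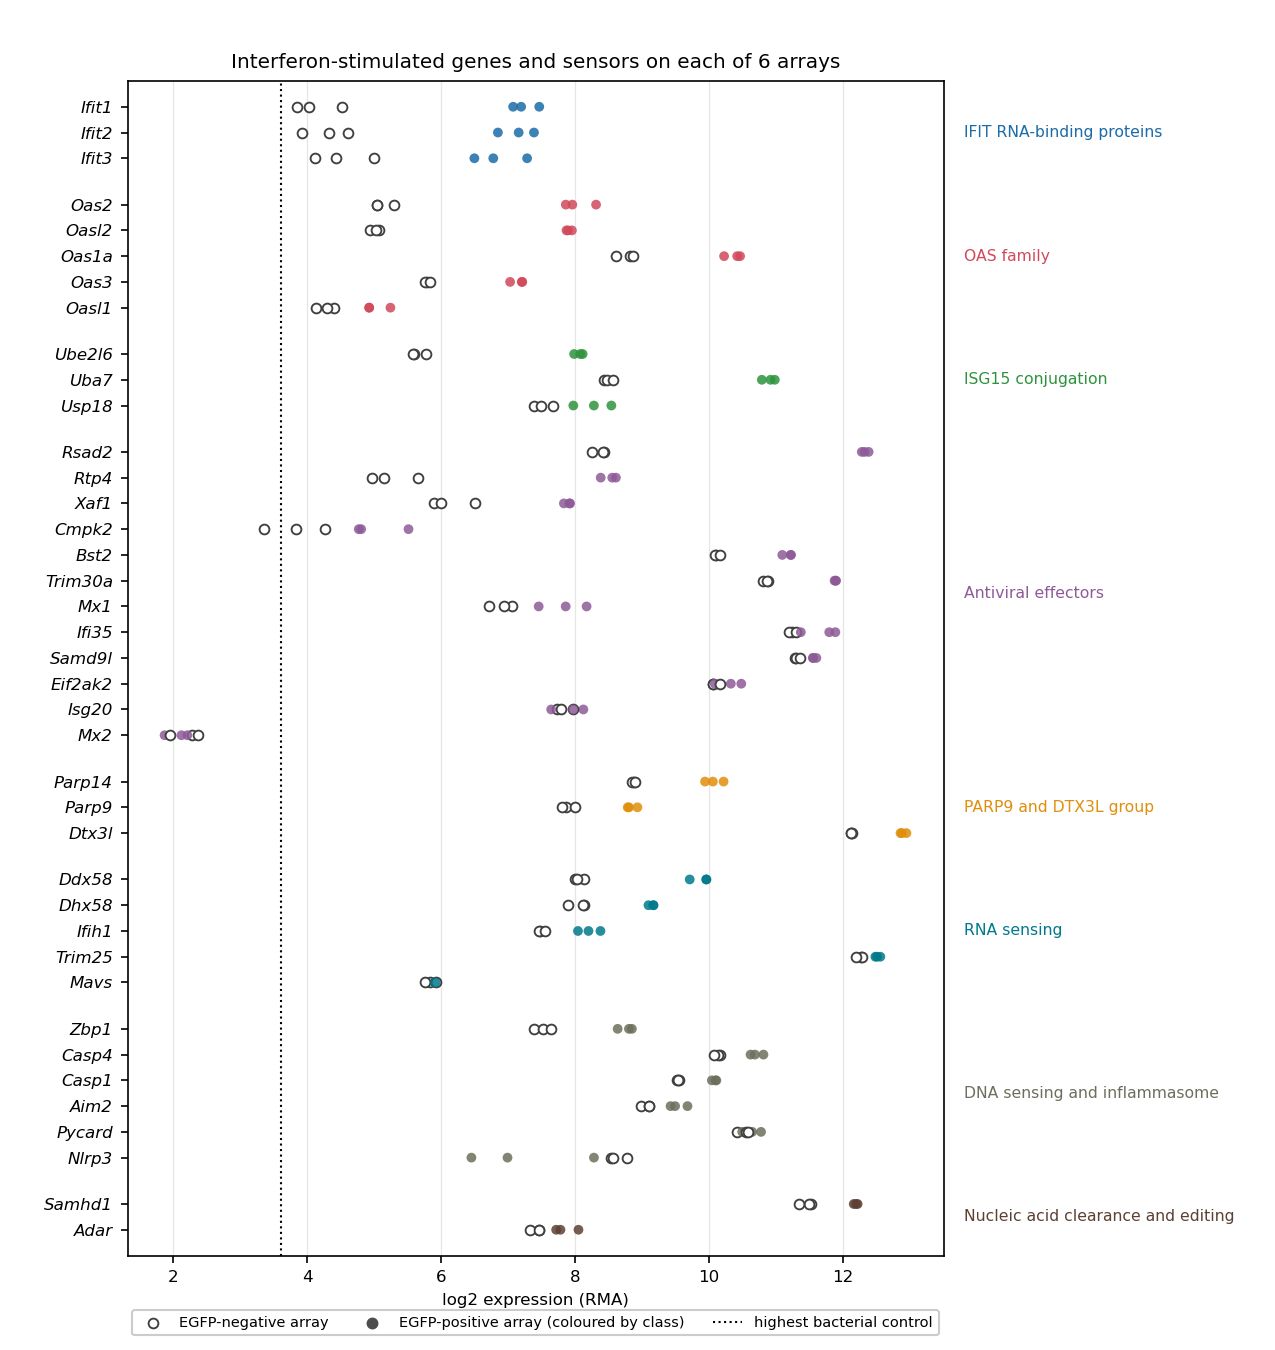
Log2 expression (RMA) of the 39 genes on each of the 6 arrays, by class, with EGFP-negative arrays as open circles and EGFP-positive arrays as filled circles. The dotted line is the highest bacterial control signal, 3.61. The 2 groups of circles stand apart, with EGFP-positive to the right, in 33 of the 39 rows.

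Values below are log2 RMA signals, given for arrays 1, 2 and 3 of each group in that order, and each is the signal of 1 probe set, which does not rank transcripts of different genes by abundance. A difference is the EGFP-positive mean minus the EGFP-negative mean with its standard error, from 3 arrays a group. The floor for a fold is 3.61, the highest signal of 27 bacterial control probe sets that no mouse transcript should bind: where the dimmer group holds an array under it, that array is set to 3.61 and the fold is a lower bound. In a bulk sample, fewer cells of a type and less RNA per cell cannot be told apart.

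The arrays correlated at 0.989 or more within a group and at 0.968 to 0.969 between groups. Progenitor markers were measured at 6 of 6, all above the bacterial controls, and 4 of them fell in EGFP-positive cells (summed linear signal 18070 to 18550 against 12100 to 12690). All 7 measured neutrophil genes fell (21810 to 23540 against 2766 to 2955), as did all 5 mast cell and basophil genes (12530 to 12920 against 3073 to 3393) and 4 of 5 monocyte genes (2450 to 2734 against 783.3 to 851.5). All 3 measured erythroid genes rose (91.14 to 120.2 against 859.8 to 1030), as did 2 of 4 megakaryocyte genes (1224 to 1287 against 2061 to 2082). The markers of plasmacytoid dendritic cells, strong makers of interferon, had overlapping sums (293.7 to 310.3 against 248.3 to 310.5), with 2 of 5 higher and 2 lower. By log2 difference Pacsin1 (2.39) and Ccr9 (1.07) rose, whereas Cox6a2 (-1.68) and Klk1 (-0.65) fell, so the overlap of sums hides opposite shifts. T cell genes (1 of 5 lower, Cd3g under the bacterial controls in both groups) summed to 109.4 to 125.8 against 68.74 to 81.92, and NK cell genes (2 of 4 lower, Ncr1 under them) to 594.6 to 613.5 against 279.1 to 353.7. B cell genes (1 of 4 higher and 1 lower, Ms4a1 and Pax5 under them) summed to 157.7 to 191 against 275.4 to 304. Conventional dendritic cell genes (1 of 4 lower, Xcr1 under them) summed to 7645 to 7699 against 8424 to 8938. Such sums weigh bright genes most. The 1 T cell gene called, Cd3e, fell from 5.91 to 3.89. Cd3d (log2 difference 0.02), Cd4 (0.23), Cd8a (0.28) and Cd3g (-0.39) were not called, so that smaller sum is no fall of the marker set. Of the NK cell genes Gzma (-2.18) and Klrd1 (-2.79) fell, whereas Prf1 (0.24) and Ncr1 (0.03) were not called. The brightest B cell gene was Cd79b (log2 mean 7.21 against 8.02), the 1 called higher. The brightest conventional dendritic cell gene, Cd74 (12.84 against 13.03), was not called (adjusted p = 0.097 in limma). The 1 called there, Itgax, fell from 6.77 to 4.08, so that larger sum is no rise of the marker set. The signal of the 3′ control probe set over that of the 5′ one was larger in EGFP-positive arrays for Actb (log2 excess 0.97 to 1.03 against 0.76 to 0.86) and Gapdh (1.03 to 1.10 against 0.80 to 0.84). The part of these shifts in the results on interferon-stimulated genes was not tested. Mecom, the mouse gene of EVI1, read 8.26 ± 0.09 without EGFP and 7.97 ± 0.20 with it (SD, n = 3) at its brightest probe set (adjusted p = 0.13 in limma). The sources used here do not say whether that probe set matches the vector's EVI1, so it does not check the labels.

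Promoter sequence was looked up because genes of this kind share a known control element. RefSeq (GRCm38.p6) gave promoters of 300 bases, 250 before and 50 after the start, for 33 of the 42 genes. The core of the interferon-stimulated response element was searched as GAAA repeated with 2 bases between, on either strand, so that a match on the other strand reads TTTC repeated with 2 bases between. It was found for 11 of the 33, against 3.99% of 27025 genes with a promoter of the same length. A match is a description of letters, and overlapping matches were counted once per gene. The windows around the matches of the 10 measured genes are shown because they hold the letters that these genes have in common, with the matches in capitals, on the strand of the gene and read 5′ to 3′.
Rsad2: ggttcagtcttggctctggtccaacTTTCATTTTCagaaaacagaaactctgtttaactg
Ifit1: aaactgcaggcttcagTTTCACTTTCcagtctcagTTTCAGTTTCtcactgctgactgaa
Ifit3: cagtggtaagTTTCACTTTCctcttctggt
Oas1a: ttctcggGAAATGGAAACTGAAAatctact
Oas3: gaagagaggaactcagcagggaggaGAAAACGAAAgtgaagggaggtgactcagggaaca
Bst2: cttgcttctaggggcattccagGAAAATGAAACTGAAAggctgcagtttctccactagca
Trim30a: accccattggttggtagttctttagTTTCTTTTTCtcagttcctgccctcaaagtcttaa
Ddx58: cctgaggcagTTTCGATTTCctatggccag
Ifih1: gaagagaatcGAAACAGAAAccgatctg
Eif2ak2: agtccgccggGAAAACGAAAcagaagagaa
Several matches run into each other, as in Bst2 and Oas1a, and Ifit1 holds a pair of separate matches. The windows of Ifit3, Oas1a, Ddx58, Ifih1 and Eif2ak2 lie at least in part within the span of the gene in RefSeq and are kept to 30 bases or fewer, so a second Ifit3 match is not shown. Trim30a has 2 promoters with a match, and the window of the one within its RefSeq span is not shown either. In GRCm38.p6 the windows are Rsad2 chr12:26456538-26456597 (minus strand), Ifit1 chr19:34640769-34640828 (plus strand), Ifit3 chr19:34583363-34583392 (plus strand), Oas1a chr5:120907523-120907552 (minus strand), Oas3 chr5:120777700-120777759 (minus strand). Those of the other five are Bst2 chr8:71537565-71537624 (minus strand), Trim30a chr7:104465195-104465254 (minus strand), Ddx58 chr4:40239804-40239833 (minus strand), Ifih1 chr2:62646206-62646233 (minus strand) and Eif2ak2 chr17:78882535-78882564 (minus strand). Of the 10 measured genes with a match, 9 rose, with a median difference of 1.48 (0.20 to 3.97). Of the 20 measured genes with a promoter and no match, 15 rose, with a median of 0.56 (-1.38 to 2.89). Over all measured genes with a promoter, 20.4% of those with a match and 16.1% of those without were higher. The 9 genes without a promoter, Oas2 and Rtp4 among them, are on neither side, and the difference between the sides was not tested.

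The 3 IFIT genes rose together, from signals near the lower end of the range. They encode tetratricopeptide proteins that bind foreign RNA and block its translation. Ifit1, which holds RNA lacking the cap methylation of host messages, gave 4.02, 3.84 and 4.52 on the EGFP-negative arrays and 7.47, 7.20 and 7.08 on the EGFP-positive ones, a rise of 3.12 ± 0.20 (8.68-fold, adjusted p = 1.3e-04). Ifit2 went from 4.60, 4.32 and 3.92 to 7.39, 7.16 and 6.85, 7.22-fold higher (2.85 ± 0.21, adjusted p = 2.2e-04). Their groups stood over 2 log2 units apart. Ifit3, a partner of the other IFIT proteins, stood at 4.43, 5.0 and 4.11 without EGFP and at 7.28, 6.78 and 6.50 with it, a difference of 2.34 ± 0.29 (5.06-fold, adjusted p = 0.0015). Its groups were also separate. The IFIT class had the largest class median, 2.85 (2.34 to 3.12). Ifit2 and Ifit3 are next to each other on chromosome 19, and 3 coding genes lie between Ifit3 and Ifit1.

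All 5 OAS genes rose, with a median of 1.60 and a range of 0.76 to 2.92. Oligoadenylate synthetases are switched on by double-stranded RNA and make the short oligoadenylates that activate RNase L, which cuts RNA. Oas2 measured 7.96, 7.86 and 8.32 in EGFP-positive against 5.04, 5.29 and 5.04 in EGFP-negative arrays and so rose by 2.92 ± 0.15 (7.59-fold, adjusted p = 5.7e-05). Oasl2, an OAS-like protein with ubiquitin-like domains, gave 5.07, 4.94 and 5.03 on the EGFP-negative arrays and 7.90, 7.87 and 7.95 on the EGFP-positive ones, a rise of 2.89 ± 0.08 (7.43-fold, adjusted p = 1.5e-05). Neither gene had overlapping groups, and both rose over 7-fold. Oas1a went from 8.82, 8.61 and 8.87 to 10.23, 10.42 and 10.47, 3.04-fold higher (1.60 ± 0.11, adjusted p = 1.7e-04). Oas3 stood at 5.78, 5.76 and 5.84 without EGFP and at 7.21, 7.20 and 7.03 with it, a difference of 1.35 ± 0.09 (2.56-fold, adjusted p = 1.3e-04). Both of these carry a match shown above, and neither had overlapping groups. Oasl1, which in mice restrains translation of Irf7, measured 4.92, 4.92 and 5.24 in EGFP-positive against 4.13, 4.40 and 4.29 in EGFP-negative arrays and so rose by 0.76 ± 0.13 (1.69-fold, adjusted p = 0.0052). Its rise was the smallest of the class, also without overlap. Oas2 and Oas3 are neighbours on chromosome 5 with 5 coding genes between Oas3 and Oas1a, and Oasl1 and Oasl2 are neighbours elsewhere on it.

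The 3 measured genes of ISG15 conjugation rose, with a median of 2.41. ISG15 is a ubiquitin-like protein that is attached to newly made proteins by an activating and a conjugating enzyme and removed by a protease. Uba7, the activating enzyme, gave 8.43, 8.48 and 8.56 on the EGFP-negative arrays and 10.79, 10.92 and 10.99 on the EGFP-positive ones, a rise of 2.41 ± 0.09 (5.32-fold, adjusted p = 2.9e-05). Ube2l6, the conjugating enzyme, went from 5.59, 5.58 and 5.77 to 7.99, 8.11 and 8.08, 5.33-fold higher (2.41 ± 0.09, adjusted p = 3e-05). Both enzymes thus rose by about the same amount, with no overlap of the groups. Usp18, the protease, which also damps signalling at the interferon receptor, stood at 7.39, 7.49 and 7.67 without EGFP and at 8.28, 8.54 and 7.98 with it, a difference of 0.75 ± 0.16 (1.68-fold, adjusted p = 0.015). Its groups did not overlap but its call was lost without EGFP-negative replicate 1 (adjusted p = 0.057) or EGFP-negative replicate 2 (0.053).

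Among the 12 measured antiviral effectors 8 rose and 4 were not called, with a median of 0.98 and a range of -0.13 to 3.97. Rsad2 (viperin), which makes a chain-terminating nucleotide, measured 12.39, 12.33 and 12.29 in EGFP-positive against 8.43, 8.26 and 8.41 in EGFP-negative arrays and so rose by 3.97 ± 0.09 (15.6-fold, adjusted p = 1.5e-05). This was the largest difference of the 39 genes, and the other Rsad2 probe sets gave 4.27 and 4.02. Cmpk2, a mitochondrial nucleotide kinase encoded beside Rsad2 on chromosome 12, gave 4.27, 3.83 and 3.36 on the EGFP-negative arrays and 4.80, 5.51 and 4.77 on the EGFP-positive ones, a rise of 1.21 ± 0.29 (at least 2.18-fold, adjusted p = 0.022). One EGFP-negative array of Cmpk2 was under the bacterial controls, so the fold is a bound, and the call was lost without EGFP-negative replicate 2 (adjusted p = 0.066) or 3 (0.064). Rtp4, a chaperone of receptors that also binds viral RNA, went from 5.65, 4.96 and 5.14 to 8.61, 8.56 and 8.38, 9.63-fold higher (3.27 ± 0.19, adjusted p = 9.4e-05). Xaf1, a partner of the apoptosis inhibitor XIAP, stood at 5.89, 6.51 and 6.00 without EGFP and at 7.83, 7.92 and 7.93 with it, a difference of 1.76 ± 0.17 (3.38-fold, adjusted p = 5.7e-04). Both stood clear of their EGFP-negative arrays. The other Rtp4 probe set rose by less, 1.65, and the mean of both by 2.46. The other Xaf1 probe set, the more variable one, had both means under the bacterial controls and was not called (adjusted p = 0.59), so it gives no measure of the gene.

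The remaining effectors started from brighter signals or moved less. Bst2 (tetherin), which holds budding virions at the cell surface, measured 11.23, 11.23 and 11.10 in EGFP-positive against 10.11, 10.09 and 10.17 in EGFP-negative arrays and so rose by 1.06 ± 0.08 (2.09-fold, adjusted p = 2.4e-04). Trim30a, a tripartite-motif ubiquitin ligase, gave 10.81, 10.88 and 10.87 on the EGFP-negative arrays and 11.89, 11.90 and 11.88 on the EGFP-positive ones, a rise of 1.04 ± 0.07 (2.05-fold, adjusted p = 1.8e-04). Both rose just over 2-fold, and the 3 EGFP-positive arrays of Trim30a were nearly equal. Mx1, a dynamin-like GTPase that C57BL/6 mice carry as a defective allele, went from 7.06, 6.71 and 6.94 to 7.86, 7.46 and 8.17, 1.90-fold higher (0.93 ± 0.20, adjusted p = 0.014). Samd9l, a restriction factor that acts on translation, stood at 11.29, 11.30 and 11.36 without EGFP and at 11.56, 11.61 and 11.56 with it, a difference of 0.26 ± 0.07 (1.19-fold, adjusted p = 0.042). The call of Mx1 was lost without EGFP-negative replicate 2 (adjusted p = 0.051), and that of Samd9l without any 1 of the 6 arrays (up to 0.13) and with replicate number as a block (0.12). Those not called were Ifi35 (0.44 ± 0.15, adjusted p = 0.064), Eif2ak2, the double-stranded RNA-dependent kinase PKR (0.20 ± 0.12, 0.27), the exonuclease gene Isg20 (0.09 ± 0.15, 0.71) and Mx2. Ifi35 gave 11.24, 11.20 and 11.30 on the EGFP-negative arrays and 11.89, 11.80 and 11.38 on the EGFP-positive ones. Its lowest EGFP-positive array, replicate 3, was close to the EGFP-negative arrays, and without it the difference was 0.60 (adjusted p = 0.0067). Eif2ak2 gave 10.06, 10.07 and 10.17 on the EGFP-negative arrays and 10.33, 10.09 and 10.49 on the EGFP-positive ones. Isg20 gave 7.73, 7.97 and 7.79 on the EGFP-negative arrays and 8.13, 7.97 and 7.64 on the EGFP-positive ones. Both overlapped between groups. Mx2 gave 2.28, 2.36 and 1.95 on the EGFP-negative arrays and 1.87, 2.12 and 2.21 on the EGFP-positive ones. All 6 Mx2 arrays were under the bacterial controls, so no fold is given.

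The 3 genes of the PARP9 and DTX3L group rose, with a median of 0.95. Parp9 and Dtx3l form a complex of an ADP-ribosyltransferase-like protein and a ubiquitin ligase, and Parp14 is an ADP-ribosyltransferase. Parp14 measured 10.06, 10.22 and 9.94 in EGFP-positive against 8.88, 8.85 and 8.89 in EGFP-negative arrays and so rose by 1.20 ± 0.10 (2.30-fold, adjusted p = 2.8e-04). Parp9 gave 7.87, 7.99 and 7.81 on the EGFP-negative arrays and 8.93, 8.81 and 8.79 on the EGFP-positive ones, a rise of 0.95 ± 0.09 (1.94-fold, adjusted p = 5.5e-04). Dtx3l went from 12.14, 12.12 and 12.13 to 12.89, 12.95 and 12.87, 1.71-fold higher (0.77 ± 0.07, adjusted p = 5.6e-04). The groups of all 3 were separate, and the 3 EGFP-negative arrays of Dtx3l were nearly equal. Parp14, Dtx3l and Parp9 follow one another on chromosome 16 with no coding gene between them.

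Of the 5 genes of RNA sensing 4 rose, with a median of 0.71. Ddx58 (RIG-I), the helicase that sees short RNA with a triphosphate end, stood at 8.0, 8.14 and 8.02 without EGFP and at 9.71, 9.97 and 9.96 with it, a difference of 1.83 ± 0.10 (3.54-fold, adjusted p = 9e-05). Ifih1 (MDA5), which sees long double-stranded RNA, measured 8.20, 8.38 and 8.04 in EGFP-positive against 7.48, 7.46 and 7.55 in EGFP-negative arrays and so rose by 0.71 ± 0.11 (1.64-fold, adjusted p = 0.0034). Dhx58 (LGP2), a helicase that modulates both of them, gave 7.89, 8.13 and 8.12 on the EGFP-negative arrays and 9.10, 9.17 and 9.17 on the EGFP-positive ones, a rise of 1.10 ± 0.10 (2.14-fold, adjusted p = 3.8e-04). None of these 3 helicase genes had overlapping groups, and Ddx58 rose most at the chosen probe sets. The other Dhx58 probe sets gave 0.18 (adjusted p = 0.72 over all probe sets) and, with both means under the bacterial controls, 0.24 (0.58), neither called, and the mean of its probe sets rose by 0.50 (adjusted p = 0.046). Trim25, a ubiquitin ligase for RIG-I, went from 12.28, 12.28 and 12.20 to 12.56, 12.51 and 12.49, 1.20-fold higher (0.27 ± 0.08, adjusted p = 0.039). That small rise depended on the probe set. A second bright probe set gave 0.28, but the difference was -0.065 as the mean of the gene's 3 probe sets (adjusted p = 0.68) and -0.74 at the most variable one, a dimmer one (adjusted p = 0.058), and the call was lost without any 1 of the 6 arrays (up to 0.11) and with replicate number as a block (0.10). Mavs, the mitochondrial adaptor that the helicases signal through, gave 5.83, 5.76 and 5.92 on the EGFP-negative arrays and 5.90, 5.90 and 5.92 on the EGFP-positive ones. Its difference was 0.07 ± 0.08 (adjusted p = 0.57), with overlapping groups.

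The 6 genes of DNA sensing and the inflammasome held Nlrp3, which had the lowest difference of the 39. Of them 4 rose, 2 were not called, and the median was 0.51. Zbp1, a sensor of left-handed nucleic acid that can start necroptosis, stood at 7.39, 7.53 and 7.64 without EGFP and at 8.85, 8.64 and 8.81 with it, a difference of 1.24 ± 0.10 (2.37-fold, adjusted p = 3.4e-04). Casp4 (caspase-11), which is activated by bacterial lipopolysaccharide, measured 10.82, 10.62 and 10.69 in EGFP-positive against 10.16, 10.14 and 10.08 in EGFP-negative arrays and so rose by 0.58 ± 0.09 (1.5-fold, adjusted p = 0.0032). Casp1, the protease at the end of the canonical inflammasome, gave 9.53, 9.56 and 9.54 on the EGFP-negative arrays and 10.11, 10.10 and 10.05 on the EGFP-positive ones, a rise of 0.54 ± 0.07 (1.46-fold, adjusted p = 0.0022). These 3 had no overlap between groups, and the caspase genes, neighbours on chromosome 9, rose by similar amounts. Aim2, the sensor of cytosolic double-stranded DNA, went from 8.99, 9.10 and 9.10 to 9.68, 9.50 and 9.43, 1.39-fold higher (0.47 ± 0.10, adjusted p = 0.013). The call of Aim2 was lost without EGFP-negative replicate 1 (adjusted p = 0.053) and with replicate number as a block (0.051). Nlrp3, an inflammasome sensor of membrane and ion disturbance, gave 8.54, 8.57 and 8.77 on the EGFP-negative arrays and 6.99, 8.28 and 6.45 on the EGFP-positive ones. Its difference was -1.38 ± 0.44 (95% interval -2.46 to -0.31, adjusted p = 0.057). EGFP-positive replicate 2 stood well above replicates 1 and 3 of its group, and without it the difference was -1.90 (adjusted p = 0.0019). Pycard (ASC), the adaptor that joins sensor to caspase, gave 10.42, 10.55 and 10.59 on the EGFP-negative arrays and 10.50, 10.65 and 10.78 on the EGFP-positive ones. Its difference was 0.12 ± 0.10 (adjusted p = 0.43), with overlap.

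Both measured genes of nucleic acid clearance and editing rose, with a median of 0.59. Samhd1, which breaks down deoxynucleotides, stood at 11.53, 11.49 and 11.35 without EGFP and at 12.20, 12.17 and 12.22 with it, a difference of 0.74 ± 0.08 (1.67-fold, adjusted p = 0.0011). Adar, which edits adenosine to inosine in double-stranded RNA, measured 7.78, 8.05 and 7.72 in EGFP-positive against 7.47, 7.32 and 7.46 in EGFP-negative arrays and so rose by 0.43 ± 0.11 (1.35-fold, adjusted p = 0.03). Their groups did not overlap. The call of Adar was lost without each array in turn except EGFP-positive replicate 3 (up to 0.10) and with replicate number as a block (0.084), though its other probe sets gave 1.24 and 0.78 and were both called.

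**Figure D2:**
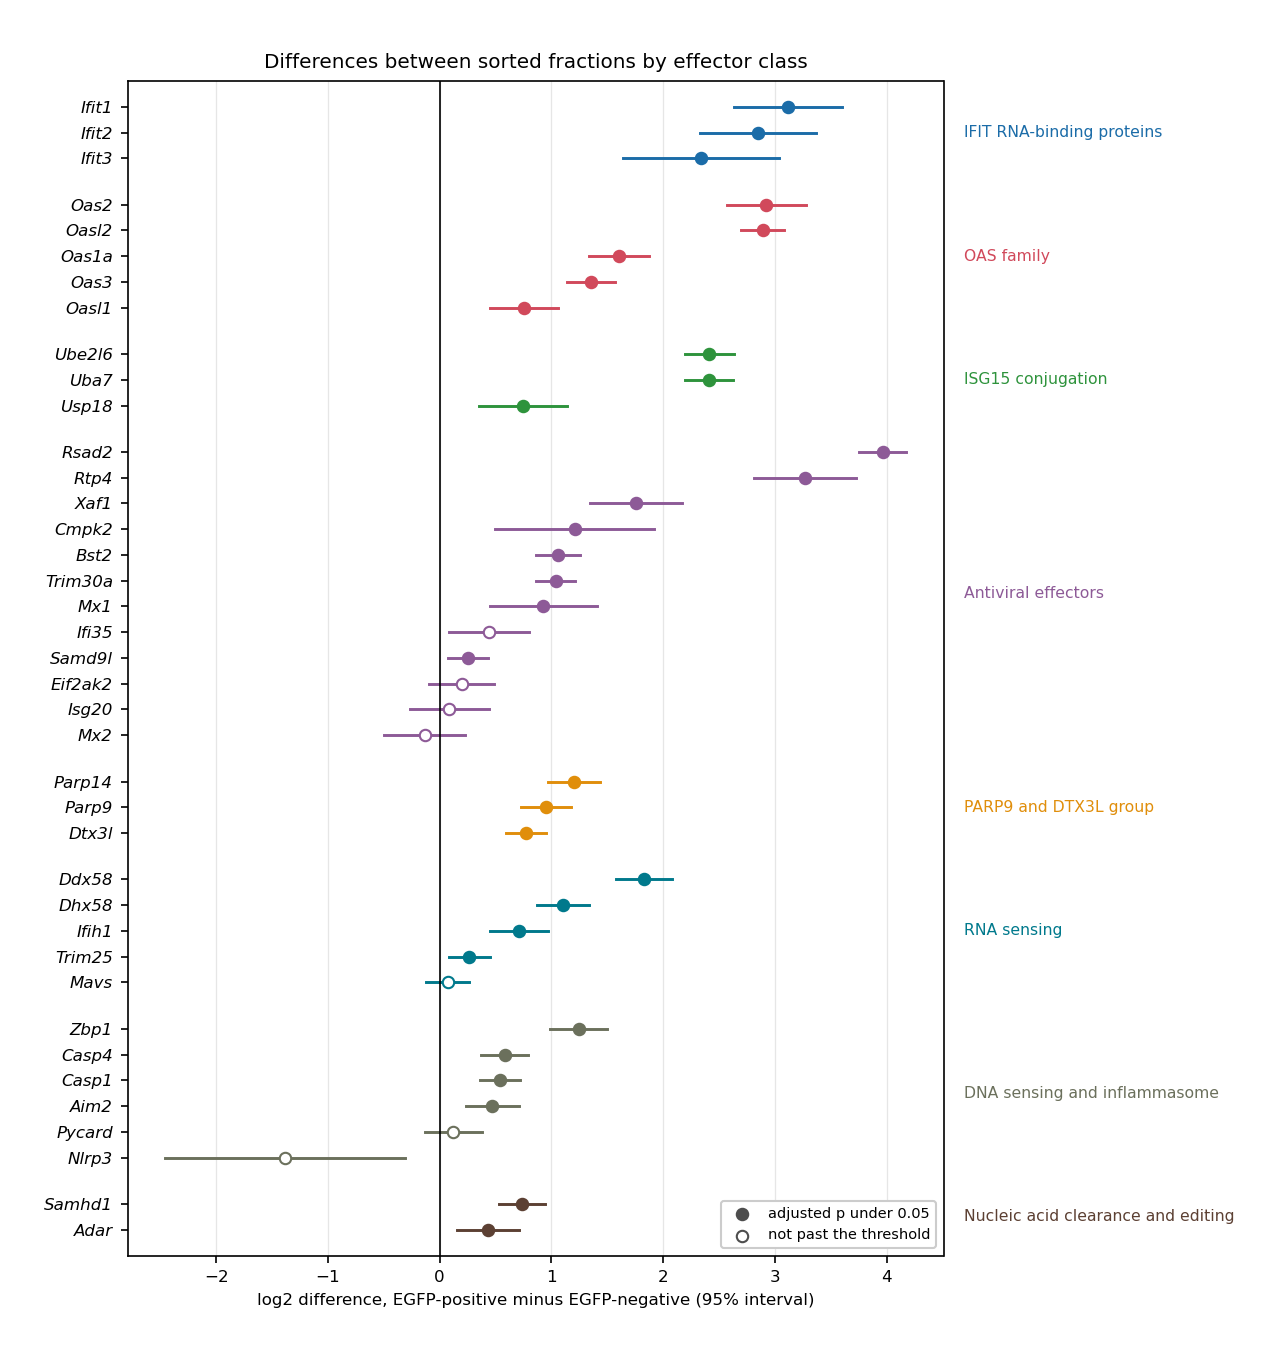
Log2 difference (EGFP-positive minus EGFP-negative) of each of the 39 genes with its 95% interval from limma, by class. The IFIT class has the highest median, 2.85, and Nlrp3 at -1.38 is the lowest value.

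Across the classes, the medians ran from 2.85 for IFIT genes through 2.41 for ISG15 conjugation, 1.60 for OAS genes, 0.98 for antiviral effectors, 0.95 for the PARP9 and DTX3L group, 0.71 for RNA sensing and 0.59 for clearance and editing to 0.51 for DNA sensing and the inflammasome. IFIT, ISG15 conjugation and OAS held 11 measured genes, all of which rose. The ranges overlapped for each pair of neighbours in this order, and the differences between classes, which hold 2 to 12 genes, were not tested. Every class had calls in 1 direction only.

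Genes with a low starting signal, the EGFP-negative mean, had the larger rises. Of 12 genes that started between the bacterial controls and the median gene (6.31), 11 rose, 10 of them at least 2-fold, with a median of 2.38. Of 26 that started above the median gene, 21 rose, 9 of them at least 2-fold, with a median of 0.74. Only Mx2 started under the bacterial controls. Among all genes the same bins gave 18.2% and 20.8% higher, 11.9% and 5.04% at least 2-fold higher, and medians of 0.06 and -0.07, so the share of large rises was lower in the brighter bin there too. Over the 39 genes the starting signal and the difference had a Pearson's r of -0.41 and a Spearman's rho of -0.42, against -0.17 and -0.17 over all 18192 genes. The points come from the same 6 arrays and the difference contains the starting signal. With the mean of both groups in its place, r was -0.21 and rho -0.29 for the 39 genes, against -0.05 and -0.07 for all genes. Rsad2 and Uba7 were exceptions to the pattern, with large rises from starting signals of 8.37 and 8.49.

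**Figure D3:**
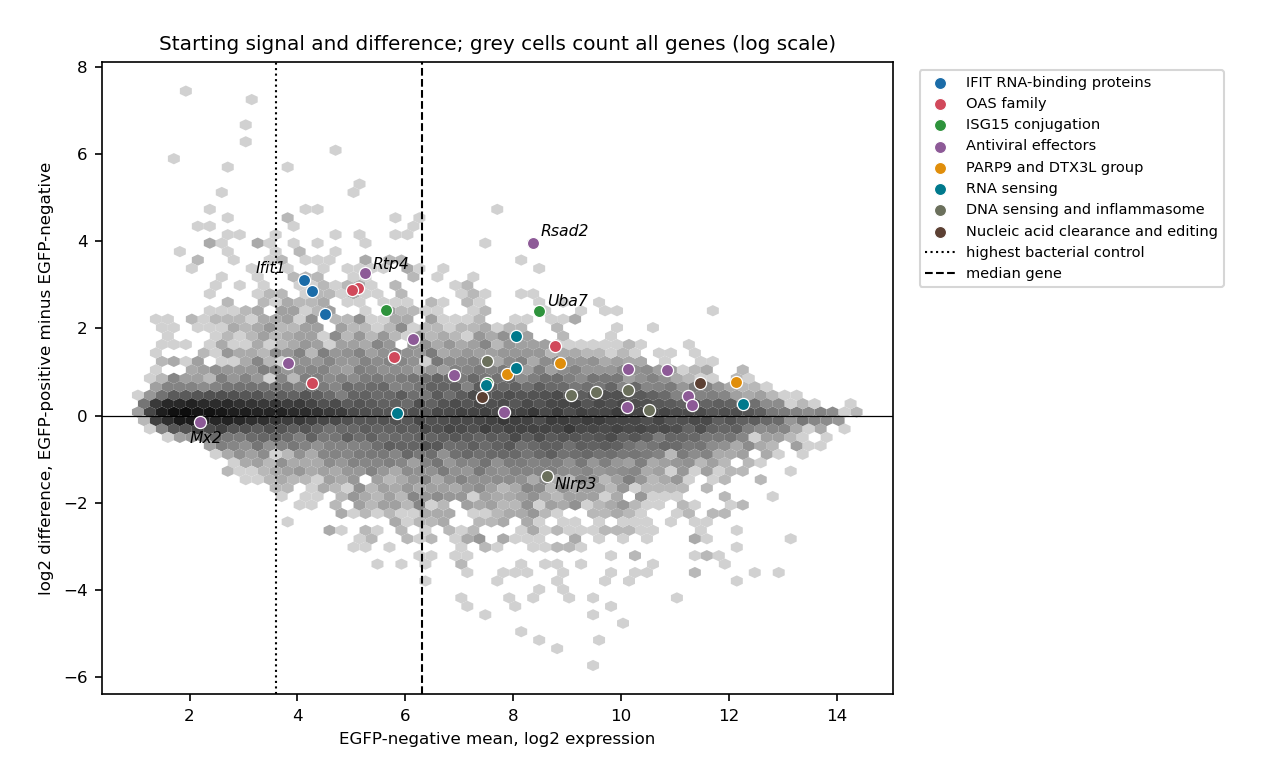
EGFP-negative mean (x, log2 expression) against the log2 difference EGFP-positive minus EGFP-negative (y) for the 39 genes, coloured by class, over all 18192 genes as grey cells shaded by count on a log scale. Between the dotted line (highest bacterial control, 3.61) and the dashed line (median gene, 6.31), 10 of 12 genes rose at least 2-fold, and to the right of the dashed line 9 of 26, with Rsad2 the highest of the 39 at 3.97.

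Other probe sets of the same genes were read as well. The 39 genes had 69 probe sets, of which 47 were called higher, none lower and 22 not called after adjustment over 45037 probe sets in limma. The share of all 45037 probe sets called in each direction was not counted, so these counts stand without a background. At an unadjusted p under 0.05, 2 were lower, those of Nlrp3 and of 1 other Trim25 probe set. At that adjustment Samd9l (adjusted p = 0.082) and Trim25 (0.076) were not called at their chosen probe sets. Uba7 gave 2.41, 2.12 and 2.01 at its 3 probe sets and Ddx58 gave 1.83, 1.46 and 1.06, all called. Rtp4 gave 3.27 and 1.65, both called, whereas Dhx58 gave 1.10, 0.18 and 0.24, of which only the first was called. Ifi35 gave 0.44, 0.50 and -0.050, of which only the middle value was called. The chosen probe sets of Ifi35 and Trim25 carry the suffix for probes shared by several transcripts.

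The genes that make and carry the interferon signal moved in both directions or were not called. Only 9 of the 18 listed interferon ligand genes were measured, and the lambda interferon genes Ifnl2 and Ifnl3 were not among them. None of the 9 measured interferon ligand genes was called in limma, with 0 at an unadjusted p under 0.05 as well, and 8 of them had both group means under the bacterial controls. Ifnb1, the interferon beta gene, read 2.38 ± 0.33 without EGFP and 2.57 ± 0.33 with it (SD, n = 3, adjusted p = 0.60). Ifna1, the exception, read 4.08 ± 0.07 and 3.93 ± 0.20 (adjusted p = 0.39). At these signals a low level of ligand transcript was not detectable.

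Of 16 measured genes of the receptor and JAK-STAT pathway 8 rose and 4 fell, with a median of 0.34. At their chosen probe sets the receptor genes Ifnar1 (0.51 ± 0.09, adjusted p = 0.0069) and Ifnar2 (0.36 ± 0.09, adjusted p = 0.022) rose slightly. Ifnlr1, which encodes the receptor chain for lambda interferons, rose from 3.88 ± 0.23 to 7.11 ± 0.01 (SD, n = 3, difference 3.23 ± 0.13, adjusted p = 3.4e-05). The call of Ifnar2 was lost with replicate number as a block (adjusted p = 0.073) and without EGFP-negative replicate 1 (0.082), EGFP-negative replicate 2 (0.077), EGFP-positive replicate 1 (0.057) or EGFP-positive replicate 2 (0.057). Its other, dimmer probe sets rose by more, 0.99 and 0.92 (adjusted p = 0.016 and 0.007 in limma over all probe sets). The other Ifnar1 probe set, also dimmer, rose by 0.81 (0.034). The transcription factor genes Stat2, from 7.49 ± 0.16 to 9.07 ± 0.10 (SD, n = 3, difference 1.59 ± 0.11, adjusted p = 1.8e-04), and Irf9, from 8.77 ± 0.12 to 9.92 ± 0.42 (SD, n = 3, difference 1.15 ± 0.21, adjusted p = 0.0077), rose. Ptpn6, a phosphatase that damps cytokine signals, rose (0.58 ± 0.07, adjusted p = 0.0018). The signalling inhibitor genes Socs3 (-1.04 ± 0.09, adjusted p = 3.8e-04) and Socs1 (-0.35 ± 0.08, adjusted p = 0.019) and the phosphatase gene Ptpn11 (-0.55 ± 0.10, adjusted p = 0.0082) fell. The call of Socs1 was lost with replicate number as a block (0.068), with limma's variance trend (0.10) and without EGFP-negative replicate 1 (0.054), 2 (0.075) or 3 (0.061).

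Of 7 measured interferon regulatory factor genes 3 rose and 2 fell, with a median of -0.08. Irf1 (1.28 ± 0.14, adjusted p = 0.001), Irf7 (0.59 ± 0.08, adjusted p = 0.0024), the factor that amplifies interferon production, and Irf2 (0.34 ± 0.08, adjusted p = 0.015) rose, while Irf8 (-1.30 ± 0.09, adjusted p = 1.5e-04) and Irf4 (-1.28 ± 0.08, adjusted p = 1.3e-04), which guide myeloid and lymphoid development, fell. The call of Irf2 was lost with replicate number as a block (0.062) and without EGFP-negative replicate 1 (0.061) or 2 (0.066).

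Of 16 measured sensor adaptors and upstream receptors 7 rose and 3 fell, with a median of 0.20. Tlr3, the endosomal receptor for double-stranded RNA, rose from 5.74 ± 0.06 to 8.24 ± 0.09 (SD, n = 3, difference 2.50 ± 0.09, adjusted p = 2.4e-05), and by 0.71 under another choice of probe set. Cgas, the DNA sensor that makes cyclic GMP-AMP (0.64 ± 0.10, adjusted p = 0.0036), and Unc93b1, the carrier of endosomal receptors (0.48 ± 0.09, adjusted p = 0.0083), rose. Tlr7, the receptor for single-stranded RNA (-2.11 ± 0.18, adjusted p = 3.6e-04), Mndal (-0.55 ± 0.10, adjusted p = 0.0065) and Ifi204 (-1.11 ± 0.20, adjusted p = 0.0071, at least 1.16-fold lower) fell, and Mndal and Ifi204 belong to the DNA-binding family of Aim2. So RNA receptors moved both ways, with Tlr3 up and Tlr7 down.

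The 4 measured inflammasome partners split evenly, with a median of -0.07. Il18 rose from 5.08 ± 0.16 to 8.19 ± 0.02 (SD, n = 3, difference 3.11 ± 0.10, adjusted p = 2.2e-05), as did Gsdmd, the pore-forming gasdermin (0.63 ± 0.09, adjusted p = 0.0028). The interleukin-1 genes Il1b (-0.78 ± 0.12, adjusted p = 0.0035) and Il1a (-2.38 ± 0.42, adjusted p = 0.0063, at least 4.94-fold lower) fell. The monocyte and neutrophil genes given above fell with them, and their part in these values was not tested.

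Of 36 further interferon-stimulated genes 21 rose (58.3%) and 5 fell (13.9%), with a median of 0.40. Ifi27l2a, a mitochondrial protein gene, rose from 7.48 ± 0.15 to 9.67 ± 0.13 (SD, n = 3, difference 2.20 ± 0.12, adjusted p = 6.7e-05), and by adjusted p it was followed by the ubiquitin ligase gene Herc6 (1.66 ± 0.12, adjusted p = 1.9e-04) and Parp12 (1.11 ± 0.08, adjusted p = 2.3e-04). Slfn1, a Schlafen family gene, fell (-2.17 ± 0.29, adjusted p = 0.002, at least 2.30-fold lower), and by 1.11 under another choice of probe set. Lgals9, which encodes galectin-9 (-1.70 ± 0.13, adjusted p = 2.2e-04), and Ifitm1, a membrane protein gene that blocks viral entry (-0.40 ± 0.07, adjusted p = 0.0079), also fell. Genes of this list moved in both directions, and its difference from the 39 was not tested.

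**Figure D4:**
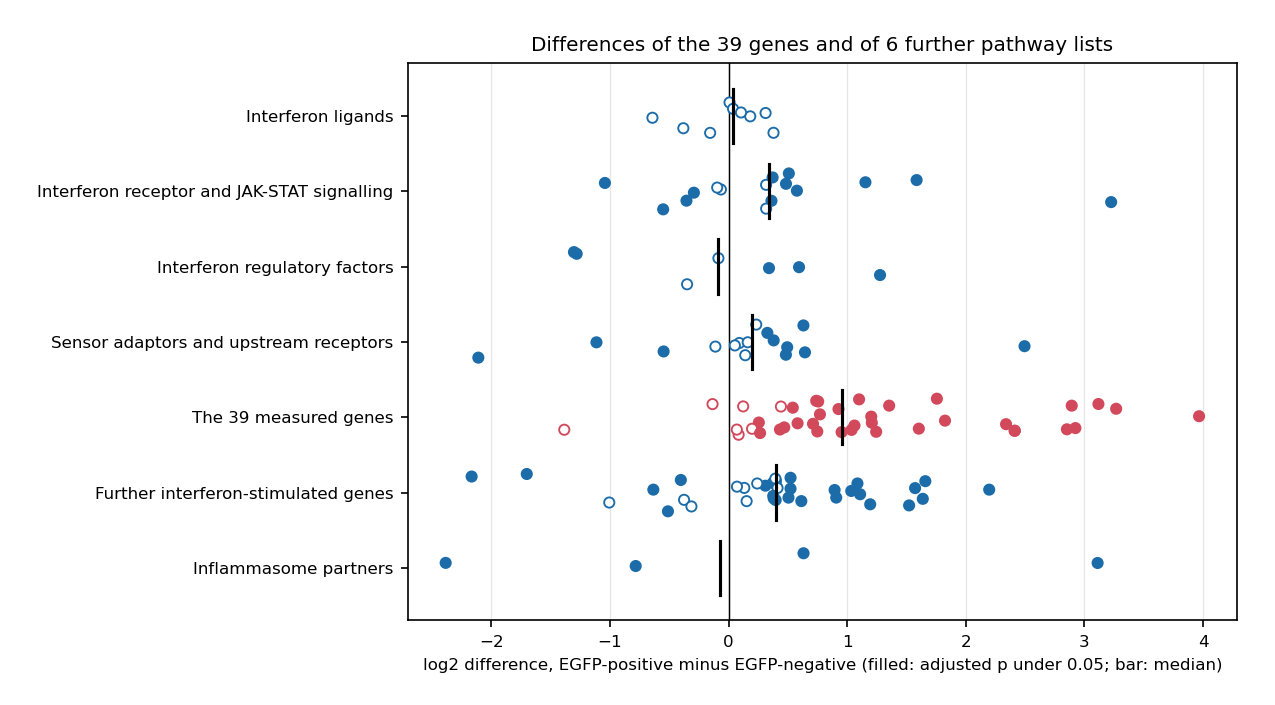
Log2 difference of each measured gene in the list of 39 and in 6 further pathway lists, 1 point a gene, red for the 39 and blue for the other lists, filled where the adjusted p was under 0.05, with a bar at each median. The 39 genes hold 32 rises and no fall, the ligands no call, and each of the other five lists both rises and falls.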

How the data were processed

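Total RNA of 6 sorted samples was amplified from the 3′ end and hybridised to 1-colour Affymetrix arrays, per the labels' protocols. The deposited values are log2 RMA signals, per the submitters' processing notes, which name RMA with no version. Of 45037 probe sets other than controls, 34945 had 1 gene in the platform annotation, 932 several and 9160 none. No further normalization was applied. Tests used R 4.3.3 and limma 3.58.1 (eBayes after lmFit, two-sided, Benjamini-Hochberg over 18192 genes) on all 6 arrays without covariates, checked on simulated data. The number of arrays limits the precision. Bounds and the ratio or fold were computed from the log2 values. Members, lists and tests were chosen with earlier results of these data known, so no count here is independent evidence of direction. All members are named, with array values for those past the threshold. From each pathway list, up to 3 genes per direction with the smallest p are named, with Ifnar1, Ifnar2, Stat2, Irf9, Irf7 and Ifnb1, and 1 item of that rule is not reported here. Alternatives covered gene filters, centring, variance models, probe set choice, the replicate block and each array left out. Promoters came from RefSeq (GRCm38.p6). The sources used here name no build for the array annotation, so no probe set coordinates are printed. RefSeq served for names, neighbours, gene spans and promoters, and only coordinates of promoter windows are given.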

Additional observations from a re-analysis of the deposited data

How the results depend on the processing

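Over 17 settings the number of the 39 genes called higher ran from 26 to 33 (main analysis 32), from 26 to 31 with 1 array left out, and their median difference from 0.91 to 1.02. The number called lower was 0 in the main analysis and 1, Nlrp3, in testing only genes above the median gene, only genes above the highest bacterial control, limma's variance trend, array weights and averaging all of a gene's probe sets. With 1 array left out it ran from 0 to 1, the 1 coming without EGFP-positive replicate 2. With the replicate number as a block, 28 of the 39 genes were higher and 4900 genes were called (6045 without it). The deviations of same-numbered arrays correlated at 0.01, -0.01 and 0.00, so no shared deviation was seen. Whether same-numbered arrays came from the same culture or sort was not tested. Of the 32 called genes, 24 kept their call in every setting they could be run in. The signs that turned were those of Trim25 (-0.065 as the mean of its probe sets, -0.74 at the most variable), Ifi35 (-0.050 at the most variable probe set) and Isg20 (-0.020 without EGFP-positive replicate 1, and up to 0.22 without EGFP-positive replicate 3). With the ceiling at the median bacterial control, 0 genes started under it (1 otherwise). The cause of these changes was not tested. Signals near the bacterial controls limit what can be said of Mx2, Cmpk2 and the interferon ligands.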

Other observations

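The promoter match was also counted over all measured genes. Of 524 measured genes with GAAA repeated with 2 bases between in the promoter window, 107 were called higher (20.4%) and 91 lower (17.4%). Without the 10 measured genes described above, 514 remained, other interferon-stimulated genes among them, of which 98 were higher (19.1%) and 91 lower (17.7%). Of 13927 measured genes with a promoter and no match, 16.1% were higher and 17.4% lower. These shares were not tested.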
